A study of Mus musculus with 8 samples.

Results

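The 81 ribosomal protein genes of the mouse were followed through 4 maps of open chromatin of the developing lens. They were the protein-coding RefSeq genes of GRCm38 whose symbols are Rpl or Rps with a number, with or without a closing a, x or l, together with Rplp0, Rplp1, Rplp2 and Rpsa. They made up 81 of the 21000 protein-coding genes with a curated transcript, and all 81 descriptions in the annotation name a ribosomal protein. Of these, 46 encode proteins of the large subunit, 30 encode proteins of the small subunit, and 5 (Rpl3l, Rpl10l, Rpl32l, Rpl39l and Rps27l) are like-named paralogues. They lay on 19 chromosomes, with 14 on chromosome 7 and 4 on X, and their median length was 3068 bp against 16724 bp for all genes.

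CD1 mice, for which no allele or treatment is named, were the source of all 8 samples, 2 in each of 4 groups. The groups were lens epithelium and lens fibers at the embryonic stage E14.5 and the newborn stage P0.5, the tissues being separated under the microscope and several lenses being combined in each sample. ATAC-seq was used, in which a transposase inserts sequencing adapters into accessible DNA. The study's methods give more cells per reaction at P0.5 than at E14.5, and at P0.5 more for epithelium than for fibers, with the same amount of enzyme, so cell input cannot be told apart from stage, nor from tissue at P0.5. The peak names mark each list as called on the pooled samples of a group, so each group has 1 list, no value below has a replicate error, and no difference between lists could be tested. A stronger promoter peak in such bulk tissue can mean more cells with an open promoter or more open DNA per cell, and these cannot be told apart.

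Ribosomal proteins are made in roughly equal amounts and assembled with ribosomal RNA in the nucleolus into the large and small subunits of the ribosome. Their genes are short, expressed in every cell type, and have housekeeping promoters that often start transcription at a C inside a run of pyrimidines. The mRNAs then begin with the terminal oligopyrimidine tract through which mTOR signaling controls their translation. In the lens, the epithelium keeps dividing, whereas fiber cells leave the cell cycle, fill with crystallins and later lose their nuclei and organelles.

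Sets of 4 values are given throughout in 1 order, with the E14.5 lists before the P0.5 lists and epithelium before fibers within each stage. The lists held 100003, 123743, 58592 and 62995 peaks. Peak height is given as fold enrichment, the ratio of fragments at the summit (the highest point of a peak) to the background of the same list. In each list, 100% of the fold values were whole multiples of 1 value within a relative tolerance of 0.001, namely 0.383, 0.297, 0.425 and 0.464. Heights were therefore counted in whole steps. If the number of steps is taken as the count of fragments, Rpl37 at 304 steps in E14.5 epithelium had an exact Poisson interval of 270.8 to 340.2. Rpl4 at 8 steps in P0.5 fibers had 3.45 to 15.8. The pseudocount that MACS2 usually adds to the count was not taken off. These intervals cover counting error only. On that reading, heights at P0.5 carried a larger relative counting error than those at E14.5.

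All 15 lens marker genes had a promoter peak in all 4 lists, with median standings (defined below) of 46.8, 19.5, 52.4 and 30.3%. Of 16 markers of retina, vessels, macrophages, blood, pigment cells and cartilage, 11, 11, 8 and 5 had one, with median standings of 89.3, 87.0, 85.6 and 84.9%. Ptprc, the pan-leukocyte gene, Hba-a1, an adult globin, and Tyr, the pigment enzyme, had none in any list. Of the 16 markers, 4 had one in all 4 lists. These were Mitf, a regulator of pigment cells, with standings of 42.0, 35.4, 26.9 and 42.9%, the vessel genes Kdr (60.9 to 84.9%) and Cdh5 (77.7 to 86.7%), and the cartilage collagen gene Col2a1 (69.96 to 90.6%). The macrophage gene Csf1r had one in 3 lists, Cd68 in both E14.5 lists and the globin Hbb-bs in E14.5 epithelium. The part of other cells in the results below was not tested.

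Nearly every ribosomal protein gene had an open promoter in all 4 lists. A promoter peak, meaning a peak that overlaps the 2 kb on either side of a curated transcription start, was found at 78 of 81 genes (96.3%, Wilson 95% interval 89.7 to 98.7) in each list other than P0.5 fibers. There it was found at 74 (91.4%, 83.2 to 95.8). The shares over all protein-coding genes were 70.3, 71.2, 67.0 and 64.6%. The trait was not particular to the members. A promoter peak was also found at 78, 78, 78 and 73 of 78 mitochondrial ribosomal protein genes. Among 39 proteasome subunit genes it was found at 38, 38, 37 and 35. The start itself lay inside a peak for 77, 77, 77 and 67 members (62.6, 64.3, 58.9 and 50.8% over all genes).

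Some members lacked a promoter peak somewhere. The paralogues Rpl3l, Rpl10l and Rpl39l, known for expression in striated muscle (Rpl3l) and in testis (Rpl10l and Rpl39l), had none in any list. The edge of the nearest peak was 239246 bp from the start of Rpl10l, 22438 bp from that of Rpl39l and 2861 bp from that of Rpl3l in E14.5 epithelium. Rpl37a, Rpl39, Rps7 and the paralogue Rpl32l had a promoter peak in 3 lists and none in P0.5 fibers, where the nearest edges were at 71083, 24914, 13563 and 5436 bp. Rps7, a small subunit protein that also binds Mdm2, reached 36.8-, 55.2- and 10.2-fold in the other lists. Rpl39, which lines the exit tunnel of the ribosome, reached 22.2-, 32.9- and 13.2-fold in those lists. Rpl37a reached 18.4-, 24.3- and 9.34-fold. The lowest height that any peak had in P0.5 fibers was 7 steps, so openness below that height would not appear in the list.

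Compared with other promoters, the members were high at E14.5 and average or lower at P0.5. Their median fold enrichment was 45.4, 60.9, 14.01 and 8.81. Over all protein-coding genes with a promoter peak the medians were 31.4, 38.0, 16.1 and 8.34. The members' median was thus 1.44 and 1.60 times the median of all genes at E14.5, and 0.868 and 1.06 times at P0.5. The highest members did not reach the highest genes in any list: the top fold was 116.6, 118.3, 54.4 and 22.2 for members and 179.8, 193.1, 81.5 and 89.0 for all genes.

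**Figure D1:**
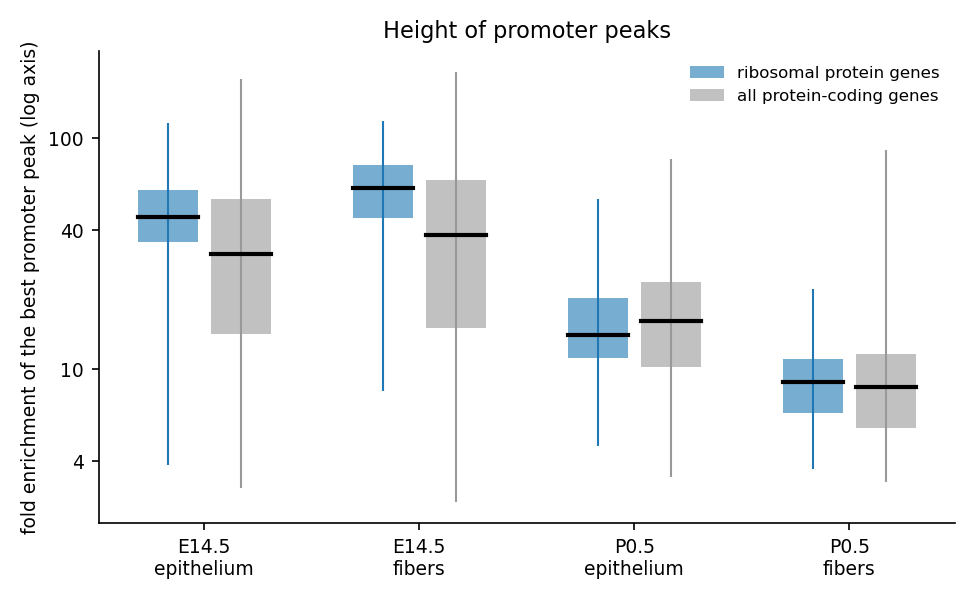
Fold enrichment of the best promoter peak (log axis) in the 4 lists, for ribosomal protein genes in blue and all protein-coding genes in grey; boxes span the quartiles, black lines are medians and thin lines run from the lowest to the highest gene. The blue median lies above the grey at E14.5 (45.4 against 31.4 in epithelium) and below it in P0.5 epithelium (14.01 against 16.1).

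Because folds depend on the background of each list, peaks were also ranked within their own list. Rank percent is the rank by fold divided by the length of the list, so that low values are strong peaks. The members' median rank percent was 4.72 (binomial 95% interval over members 3.60 to 5.66), 3.26 (2.62 to 3.86), 15.8 (12.3 to 18.8) and 9.32 (7.65 to 12.6). All genes had medians of 7.68, 6.10, 12.8 and 10.3. The best promoter peak was in the top 10% of its list for 70, 74, 24 and 38 of the 81 members, while the shares over all genes were 41.9, 47.5, 27.7 and 30.2%.

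A second measure, the standing among genes, ranks the best promoter peak of a gene against the best promoter peaks of all protein-coding genes of the same list. It leaves aside how many distal peaks a list holds. The members' median standing was 33.3% (quartiles 21.1 and 44.3), 29.1% (17.5 and 42.9), 57.5% (34.3 and 69.5) and 42.9% (27.5 and 63.3). Thus 64 of 78, 66 of 78, 33 of 78 and 41 of 74 members stood in the upper 50% of promoters. Large subunit genes had medians of 32.7, 31.0, 60.9 and 46.7%, and small subunit genes 34.6, 25.3, 51.5 and 39.6%.

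**Figure D2:**
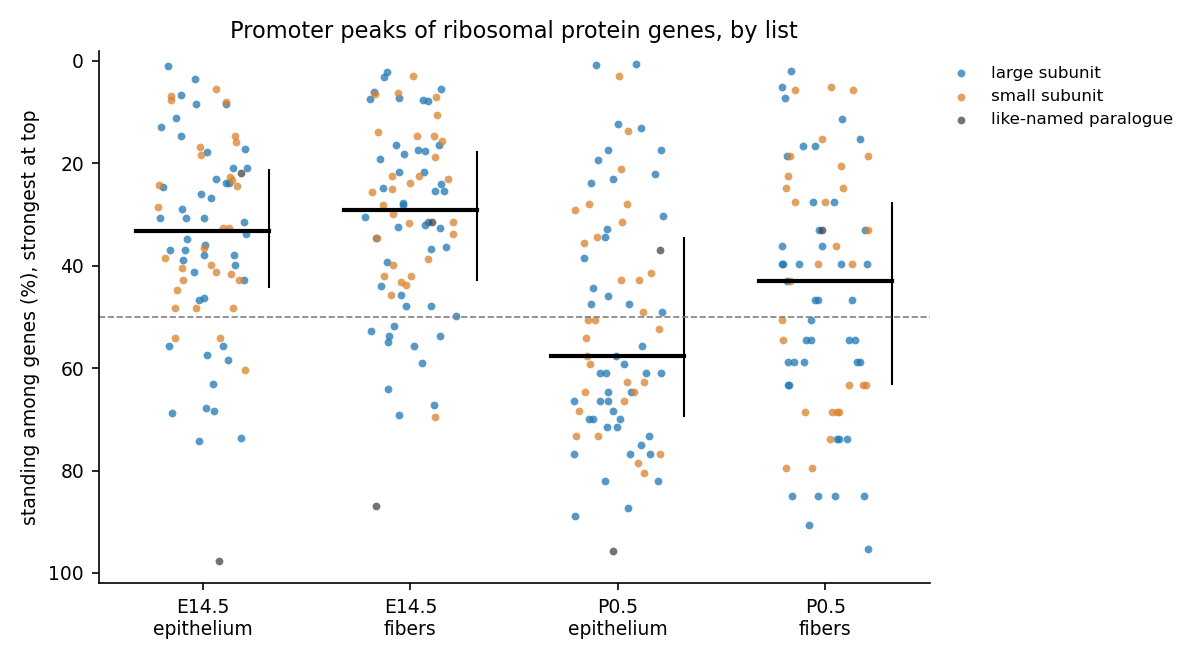
Standing of each ribosomal protein gene among the best promoter peaks of all protein-coding genes (%, strongest at the top) in the 4 lists, 1 point a gene, colored by subunit; thick lines are medians, thin lines the quartiles and the dashed line is 50%. Most points lie above the dashed line at E14.5 (medians 33.3 and 29.1%), and the median lies below it in P0.5 epithelium (57.5%).

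The first comparison asked how the epithelium differed between E14.5 and P0.5. All 78 members with a promoter peak had it at both stages, as had 93.9% of all genes with one at E14.5. Their median fold was lower at P0.5, with a median log2 ratio of P0.5 to E14.5 of -1.59 against -1.02 for the 13853 genes with a peak in both lists. Of the 78 members, 70 lay below the median of all genes. By rank percent in the whole list, 3 of 78 members were better at P0.5, where the share over all genes was 18.6%. With each list limited to its 58592 strongest peaks, 14 members were better, where the share over all genes was 49.9%. By standing, 14 of 78 were better at P0.5, where the share over all genes was 43.8%, and the median difference was 18.5 percentage points, towards weaker at P0.5 (1.58 over all genes).

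In the epithelium, Rpl38, whose loss in mice disturbs axial patterning, had the largest loss of rank percent. It went from 9.74 (25.3-fold) at E14.5 to 39.5 (6.79-fold) at P0.5. Rpl6, another large subunit protein, went from 16.9 (14.6-fold) to 43.0 (6.37-fold). In the other direction, Rpl32l went from 77.7 to 66.3, both weak positions at 10 and 11 steps, and Rpl15 from 0.472 (99.3-fold) to 0.157 (54.4-fold). The peaks of Rpl32l did not cover its start, from which their nearest edges were 1141 and 1194 bp away. Chosen after the values were seen, Rpl28 had the largest loss of standing, from 23.9 to 66.4%, and Rps23, of the decoding center, the largest gain, from 40.4 to 29.1%. The folds of Rps23 were 39.1 and 22.1.

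The second comparison asked the same of the fibers. Of the 78 members with a promoter peak at E14.5, 74 kept one at P0.5 (88.4% over all genes). The median log2 ratio of P0.5 to E14.5 was -2.79 for members and -2.27 for the 13213 genes with a peak in both lists, and 68 of 74 members lay below the latter. By rank percent, 2 of 74 members were better at P0.5 (15.7% over all genes), and 11 in lists of equal length (52.8% over all genes). By standing, 9 of 74 were better (46.6% over all genes), and the median difference was 12.7 percentage points, towards weaker at P0.5 (0.969 over all genes).

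Rpl4 and Rpl35a had the largest loss of rank percent in fibers. Rpl4 went from 10.2 (21.4-fold) to 69.2 (3.71-fold), and its peak at P0.5 began 798 bp from the start with its summit at -818 bp. Rpl35a, mutated in some families with Diamond-Blackfan anemia, went from 7.16 (32.03-fold) to 48.9 (4.17-fold). Their P0.5 heights were 8 and 9 steps, with overlapping Poisson intervals of 3.45 to 15.8 and 4.11 to 17.1, and many peaks of that list tie at such heights, so that 1 step separates rank percents of 69.2 and 48.9. By log2 ratio Rpl4, at -2.53, was lower at P0.5 by less than the median member, and Rpl35a, at -2.94, by more. Chosen after the values were seen, Rpl41 had the largest loss of standing, from 7.82 to 54.6%, and the lowest log2 ratio, -3.7. Its peak also covered the start of Zc3h10. The largest gain of standing was that of Rpl14, from 24.03 to 1.95%. Rpl14, of the large subunit, and Rps16, of the small subunit, were the 2 members with better rank percent at P0.5. Rpl14 went from 2.66 to 0.446 with 67.3- and 22.2-fold, which made it the highest member of P0.5 fibers. Rps16 went from 1.58 to 1.22 with 81.5- and 18.1-fold. At 48 and 39 steps the P0.5 heights of Rpl14 and Rps16 were among the largest of that list's members, and their heights in P0.5 epithelium were 39 and 37 steps.

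**Figure D3:**
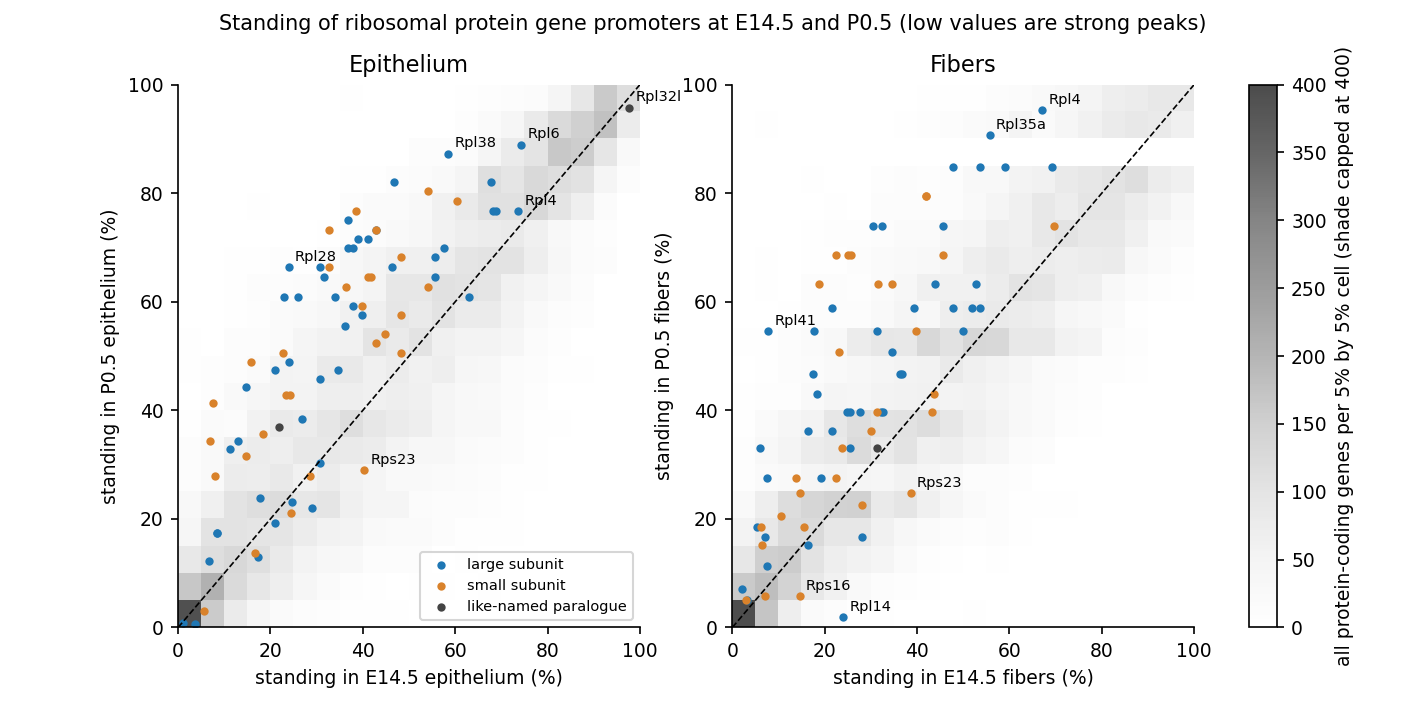
Standing among genes (%) at E14.5 against P0.5 in epithelium (left) and fibers (right); points are ribosomal protein genes colored by subunit, grey cells count all protein-coding genes and the dashed line marks equal standing. Most members lie above the line, that is weaker at P0.5, with 14 of 78 below it in epithelium and 9 of 74 in fibers.

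Because the members started high at E14.5, they were also set beside all genes of the same broad range of E14.5 standing. Of the 29 members with an E14.5 epithelium standing of up to 25%, the median standing at P0.5 was 32.9%, whereas the 3747 genes of that range had 14.4%. For the 35 members between 25 and 50% the medians were 62.7% and 39.8%, and for the 13 members between 50 and 75% they were 76.7% and 62.7%. In fibers, the 32 members of up to 25% had 27.5% against 13.8%, the 33 between 25 and 50% had 54.6% against 39.6%, and the 9 between 50 and 75% had 84.9% against 63.3%. In each of these ranges the members' median was weaker than that of all genes of the range. Standings within a range were not matched, so part of a gap can have been present at E14.5.

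The tissues were compared at each stage, with the same 4 lists used again. At E14.5, 67 of 78 members had a better rank percent in fibers than in epithelium (72.8% over all genes), and 59 of 78 had a better standing (54.2% over all genes). The median log2 ratio of fibers to epithelium was 0.40 for members and 0.23 for all genes. Rpl32l moved most, from 77.7 to 27.2 in rank percent, followed by Rpl19, from 13.0 (18.8-fold) to 6.43 (35.9-fold). Neither peak of Rpl32l covered its start, and their nearest edges lay 1141 bp from it in epithelium and 338 bp in fibers. Rpl22, an RNA-binding protein of the large subunit, was better in epithelium, with 3.27 (56.0-fold) against 5.22 (44.2-fold). Rpl36a, on the X chromosome, had 4.32 (47.9-fold) against 6.10 (38.0-fold).

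At P0.5 the members were more spread. By rank percent 49 of 74 members were better in fibers (57.5% over all genes), and by standing 45 of 74 (51.5% over all genes). The median log2 ratio of fibers to epithelium was -0.846 for members and -0.934 for all genes. The change in standing had quartiles of -21.04 and 7.44 percentage points over members, and -12.3 and 11.3 over all genes. Rpl38 (39.5 in epithelium, 15.7 in fibers) and Rpl19 (31.6 and 14) had the largest gains of rank percent in fibers, and Rpl4 (26.3 and 69.2) and Rpl35a (26.3 and 48.9) the largest losses. The folds of Rpl38 and Rpl19 were lower in fibers, at log2 ratios of -0.066 and -0.215. Chosen after the values were seen, Rpl14 (47.4 and 1.95%) and Rps16 (50.6 and 5.74%) had the largest gains of standing. Their log2 ratios were 0.426 and 0.202. Rps21 (13.75 and 50.65%) had the largest loss of standing. The fiber peak of Rpl38 began 431 bp from the start, with its summit at 520 bp, and lay inside the stretch that the peaks across the start covered in the other lists. Its heights were 16 steps in epithelium and 14 in fibers, with Poisson intervals of 9.14 to 26.0 and 7.65 to 23.5 that overlap.

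Promoters at both ends of the ranking by mean rank percent are shown, among members with a peak in all 4 lists. By the mean rank percent over the 4 lists, the strongest members were Rpl37 (0.528), Rps29 (0.849), Rpl13a (1.63), Rpl27a (1.70) and Rpl15 (1.78). The weakest with a peak in all 4 lists were Rpl4 (30.5), Rpl6 (26.4), Rpl35a (23.96), Rpl32 (18.02) and Rpl38 (17.9). Each sequence below runs from 80 bases before a RefSeq start to 20 bases from it on, 5′ to 3′ on the strand of the gene, from the promoter table of GRCm38.p6. Capitals mark the longest run of at least 8 pyrimidines that reaches within 20 bases of the start, which is base 81, and shorter runs are left in lower case. The strongest are Rpl37 (chr15:5116533-5116632, plus strand), Rpl27a (chr7:109519115-109519214, plus strand), Rpl15 (chr14:18270967-18271066, minus strand) and Rpl13a (chr7:45128726-45128825, minus strand). The weakest are Rpl4 (chr9:64173307-64173406, plus strand), Rpl6 (chr5:121204421-121204520, plus strand), Rpl35a (chr16:33056402-33056501, plus strand, its second start) and Rpl38 (chr11:114668500-114668599, plus strand). Rps29 and Rpl32 are named only.
Rpl37: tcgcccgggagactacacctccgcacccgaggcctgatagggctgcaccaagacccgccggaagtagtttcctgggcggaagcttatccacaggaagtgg
Rpl27a: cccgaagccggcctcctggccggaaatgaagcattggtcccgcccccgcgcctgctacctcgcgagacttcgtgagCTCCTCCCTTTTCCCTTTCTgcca
Rpl15: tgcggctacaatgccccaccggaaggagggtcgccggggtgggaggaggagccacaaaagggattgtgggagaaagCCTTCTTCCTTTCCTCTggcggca
Rpl13a: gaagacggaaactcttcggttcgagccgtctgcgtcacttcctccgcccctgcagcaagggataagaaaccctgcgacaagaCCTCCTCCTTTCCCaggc
Rpl4: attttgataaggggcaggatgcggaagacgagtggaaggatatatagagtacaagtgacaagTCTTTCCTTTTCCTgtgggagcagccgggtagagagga
Rpl6: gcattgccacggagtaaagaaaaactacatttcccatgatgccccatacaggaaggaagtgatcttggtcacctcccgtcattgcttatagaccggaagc
Rpl35a: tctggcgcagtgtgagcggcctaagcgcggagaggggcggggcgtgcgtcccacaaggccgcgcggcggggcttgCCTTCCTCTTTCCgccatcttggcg
Rpl38: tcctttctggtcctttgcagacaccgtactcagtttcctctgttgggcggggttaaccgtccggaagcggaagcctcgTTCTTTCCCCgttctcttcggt

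A pyrimidine run was found near the start of both strong and weak promoters. It measured 20 bases in Rpl27a, 17 in Rpl15 and 14 in Rpl13a, and also 14 in Rpl4, 13 in Rpl35a and 10 in Rpl38. Of the 3 starts of Rpl35a, the one shown is the only one with a run. Rpl37, the strongest member, and Rpl6, among the weakest, had none.

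Rpl37, a zinc-binding protein of the large subunit, had 116.6-, 118.3-, 50.9- and 17.2-fold peaks in the order of the lists. Its standing was 1.04, 2.14, 0.846 and 7.16%, so it stood among the strongest promoters of each list. Rps29, the small subunit protein next to the decoding site, had 90.9-, 98.4-, 42.0- and 18.1-fold. Rpl13a, which can leave the ribosome to silence inflammatory mRNAs, had 82.4-, 113-, 27.2- and 18.5-fold. Rpl27a had 87.0-, 97.0-, 30.1- and 15.3-fold. Rpl15, needed for ribosomal RNA processing, had 99.3-, 97.3-, 54.4- and 11.1-fold. Rpl15 was the highest member in P0.5 epithelium with a standing of 0.555%, but stood at 27.5% in P0.5 fibers.

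At the weak end, Rpl4 had 14.9-, 21.4-, 9.34- and 3.71-fold and Rpl6 14.6-, 19.6-, 6.37- and 4.63-fold. Rpl35a had 18.02-, 32.03-, 9.34- and 4.17-fold, and Rpl32 27.2-, 29.1-, 11.5- and 4.63-fold. Rpl38 had 25.3-, 35.0-, 6.79- and 6.49-fold. The lowest of these 5 in E14.5 epithelium, Rpl6, thus had 38 steps where Rpl37 had 304.

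The stalk proteins Rplp0, Rplp1 and Rplp2, which recruit the translation GTPases to the large subunit, differed in height. Rplp0 had 69.4-, 103-, 17.4- and 13.0-fold, Rplp1 41.4-, 40.03-, 13.6- and 4.63-fold, and Rplp2 34.1-, 56.9-, 11.9- and 5.56-fold. Rplp0 thus stood at 18.5% in P0.5 fibers, whereas Rplp1 stood at 84.9% and Rplp2 at 73.9%. Rpsa, a small subunit protein also known as the laminin receptor, had 55.6-, 79.8-, 17.8- and 13.0-fold. Rps6, the substrate of S6 kinase downstream of mTOR, had 63.3-, 82.7-, 19.96- and 11.1-fold, with its summit within 25 bp of the start in every list. Its promoter (chr4:86857348-86857447, minus strand) holds a run of 10 pyrimidines across the start:
Rps6: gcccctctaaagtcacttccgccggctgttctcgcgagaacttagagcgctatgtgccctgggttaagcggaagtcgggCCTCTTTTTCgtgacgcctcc

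Of the 5 paralogues, Rps27l had a promoter peak in all 4 lists, Rpl32l in 3 and the others in none. Rpl3, at the peptidyl transferase center, had 53.3-, 70.6-, 13.2- and 9.73-fold, and Rpl10, a late-joining protein of the large subunit, had 41.4-, 56.6-, 11.04- and 9.27-fold, while Rpl3l and Rpl10l had no promoter peak. Rpl39l had none either, against 3 lists with a peak for Rpl39. Rps27l, a p53 target, was higher than Rps27 in each list, with 58.7-, 58.1-, 19.5- and 10.2-fold against 32.6-, 46.3-, 14.01- and 5.10-fold. Rpl36a had 47.9-, 38.0-, 21.7- and 7.42-fold and Rps4x, also on X, 24.1-, 19.3-, 8.92- and 5.56-fold. The promoter of Rpl39 (chrX:37085203-37085302, minus strand) is shown for comparison, with the same marks. Below it are Rpl39l (chr16:10170148-10170247, plus strand) and Rpl10l (chr12:66284382-66284481, minus strand), paralogues without a promoter peak in any list.
Rpl39: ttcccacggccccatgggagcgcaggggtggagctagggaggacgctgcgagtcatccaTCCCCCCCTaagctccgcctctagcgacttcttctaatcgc
Rpl39l: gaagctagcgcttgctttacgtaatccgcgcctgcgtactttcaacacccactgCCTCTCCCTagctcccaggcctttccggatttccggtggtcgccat
Rpl10l: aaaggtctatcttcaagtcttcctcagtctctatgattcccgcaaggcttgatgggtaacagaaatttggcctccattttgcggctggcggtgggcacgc

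A pyrimidine run of 9 bases lay upstream of the start in both Rpl39 and Rpl39l, and Rpl10l, a gene of 1 exon, had none. Rpl39 also holds a shorter run just downstream of its start, left in lower case. Sequences were given for 61 of the 81 members, with 73 promoters of 300 bases (250 before the start and 50 from it on), and for 16853 protein-coding genes with 20488 promoters. A C at the annotated start followed by at least 4 pyrimidines was found in 14 of 73 member promoters (19.2%, Wilson 95% interval 11.8 to 29.7) and in 2.23% of all promoters. With the looser rule of the capitals, 35 of 73 (47.9%, 36.9 to 59.2) and 20.95% had a pyrimidine run, whose median length was 11 bases among members. Runs were read on the sense strand only.

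Of the motifs searched on both strands of the 300 bases, the Ets motif CCGGAAG was in 26 of 73 member promoters (35.6%, 25.6 to 47.1) and 11.9% of all promoters. The YY1 motif AAGATGG was in 11 (15.1%, 8.63 to 25) and 6.30%. The Sp1 motif GGGCGG was in 42 (57.5%, 46.1 to 68.2) and 47.6%, and the E-box CACGTG in 8 (10.96%, 5.66 to 20.2) and 8.03%. The NRF1 motif GCGCATGC was in 3 (4.11%, 1.41 to 11.4) and 3.64%, and the TATA box TATAAA in 7 (9.59%, 4.72 to 18.5) and 12.4%. The interval over members lay above the share of all promoters for the pyrimidine start, the run, Ets and YY1, and contained it for the other motifs. Starts of 1 gene can overlap, and Rpl35a alone gives 3 of the 11 promoters with YY1. Counted by gene, YY1 was found in 9 of 61 members (14.8%, 7.96 to 25.7) and 7.25% of all genes, Ets in 25 (41.0%, 29.5 to 53.5) and 13.3%, and the pyrimidine start in 14 (22.9%, 14.2 to 34.9) and 2.71%. Members were close to all genes in GC content, with medians of 57.7 and 57.0%, but held more CpG dinucleotides, with medians of 21 and 14 per promoter. A match in these letters is a description of the sequence and no sign of binding.

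**Figure D4:**
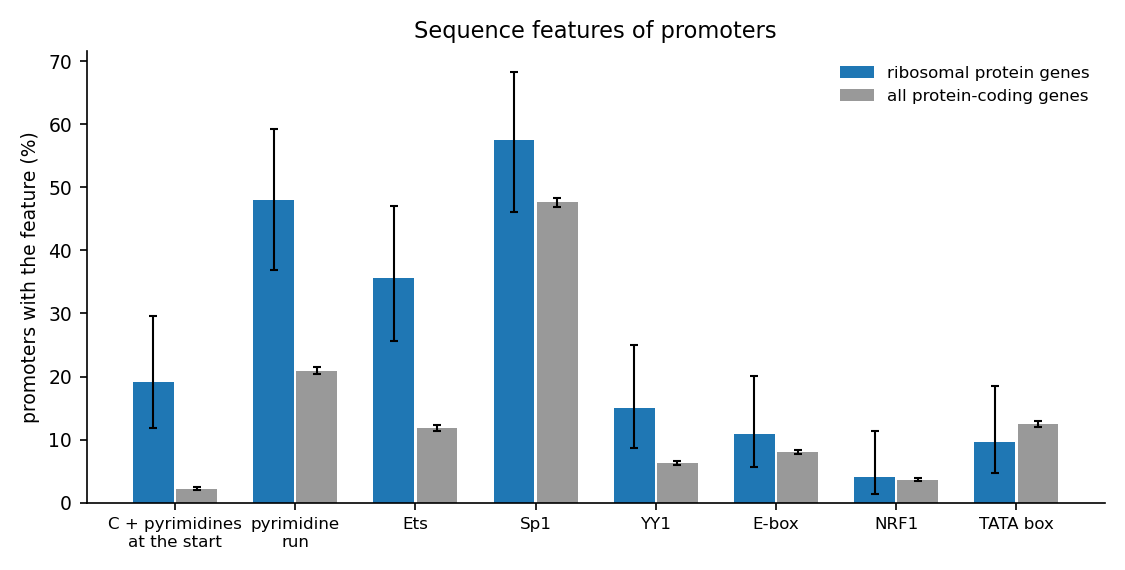
Share of promoters (%) with each sequence feature among 73 promoters of ribosomal protein genes (blue) and 20488 promoters of protein-coding genes (grey); error bars are Wilson 95% intervals. The blue bars are the taller for the pyrimidine start (19.2 against 2.23%), the pyrimidine run (47.9 against 20.95%) and the Ets motif (35.6 against 11.9%).

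The members' peaks were of ordinary width. Median widths were 1046.5, 1368.5, 730 and 583 bp, against 981, 1249, 705 and 563 bp over all genes. Peaks were wider at P0.5 than at E14.5 for 2 of 78 members in epithelium (8.68% over all genes) and for 0 of 74 in fibers (1.65%), so that narrower peaks at P0.5 were general. Rpl7 was the widest member in 3 lists and among the 3 widest in the fourth, with 2540, 2772, 2339 and 1812 bp. Its peaks also covered the start of Rdh10, and their summits lay between -378 and -1277 bp from the start of Rpl7. Rpl36 had the widest single peak, 4293 bp in E14.5 fibers. Rpl10a (1849, 2197, 1265 and 1238 bp) and Rpl7a (1390, 2436, 1245 and 1270 bp) were also among the widest.

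**Figure D5:**
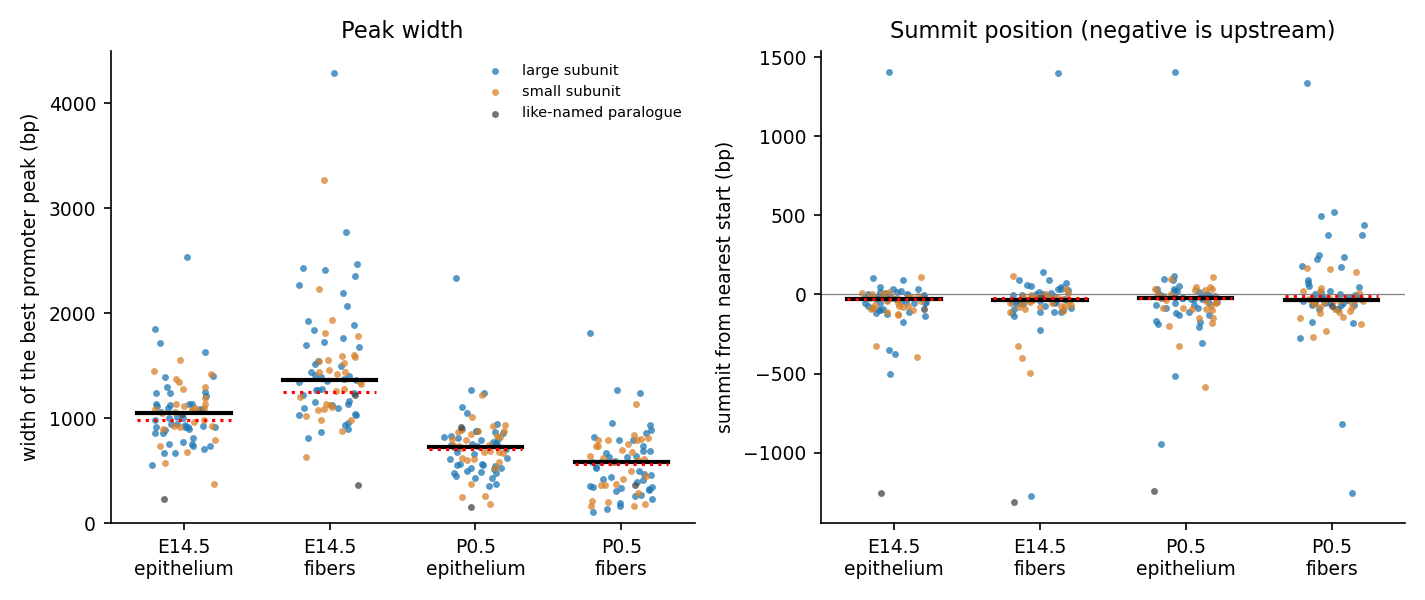
Width of the best promoter peak (left, bp) and distance of its summit from the nearest start (right, bp, negative upstream) for each ribosomal protein gene in the 4 lists; black lines are medians of members and dotted red lines medians of all protein-coding genes. Widths are smaller at P0.5 than at E14.5 (medians 1368.5 and 583 bp in fibers), and 61 of 78 summits in E14.5 epithelium lie within 100 bp of the start.

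Summits sat close to the start. Their median position was -29.5, -34.5, -25.5 and -36.0 bp, and 61 of 78, 62 of 78, 57 of 78 and 47 of 74 lay within 100 bp of it (78.2, 79.5, 73.1 and 63.5%, against 56.8, 54.9, 56.5 and 46.9% over all genes). Over the 4 lists the summit of a member moved by a median of 72 bp in 74 members, against 104 bp in 12727 genes. Rpl41, chosen after its values were seen, had its summit far downstream at 1406, 1401, 1406 and 1340 bp, where its peak covered the start of Zc3h10. In all, the best peak of 14, 14, 14 and 11 members covered the start of another protein-coding gene (14.4, 14.8, 14.2 and 13.2% over all genes with a promoter peak), and for these the share of each gene in the peak cannot be told apart. Examples, chosen after the values were seen, are Rpl15 with Nkiras1, Rpl7a with Med22, Rps18 with Vps52 and Rps27a with Clhc1.

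A further peak in the promoter window, so that it held 2 or more, was found in 36, 38, 14 and 22 of the 81 members (30.0, 30.6, 21.7 and 24.6% over all genes). Few members had peaks in the rest of the gene. A gene body peak outside the promoter window was found in 11, 19, 0 and 6 members, of which 67 extended beyond that window at all. The shares over all genes, which are longer, were 45.0, 50.2, 33.0 and 38.5%. With a window of 500 bp the counts were 31, 33, 1 and 10, and the shares 51.3, 56.1, 38.4 and 44.3%. Rpl3 had such a peak in 3 lists, as did Rpl35, which was named after its values were seen. Peaks of any kind covered a median of 18.99, 31.5, 11.9 and 11.2% of the members' short gene bodies, against 2.25, 3.54, 1.21 and 1.08% over all genes.

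Other gene families of protein synthesis and turnover are given beside the members without a test. Of 27 other translation genes, such as elongation and initiation factors, all 27 had a promoter peak in each list, with median standings of 30.01, 22.1, 39.8 and 20.5%. Among those picked after the values were seen, Tpt1, whose mRNA also begins with a pyrimidine tract, stood at 0.921, 1.34, 2.98 and 0.405%, and Eef1a1, the main elongation factor, at 12.9, 22.1, 9.41 and 16.7%. The 78 mitochondrial ribosomal protein genes had medians of 45.2, 40.6, 53.2 and 39.6%, and the 39 proteasome subunit genes 37.5, 32.2, 47.4 and 42.9%. From E14.5 to P0.5 in epithelium the median difference in standing was 18.5 percentage points for ribosomal protein genes, 10.7 for other translation genes, 8.20 for proteasome genes and 6.70 for mitochondrial ribosomal protein genes, and 1.58 over all genes. In fibers the differences were 12.7, 1.51, 13.6, 2.28 and 0.969. In fibers the value for proteasome genes was thus no smaller than that for ribosomal protein genes.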

How the data were processed

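ATAC-seq libraries of 8 samples in 4 groups were sequenced by the authors. Per the labels and the methods, reads were trimmed with Trim Galore 0.4.1, aligned to mm10 with Bowtie2 2.3.3.1 and cleaned with SAMtools 1.2 and Picard 2.1.1. Peaks were called with MACS2 2.1 at q 0.05. The methods describe calls per sample, whereas the authors deposited 1 peak list a group, whose peak names mark it as pooled, with the fold enrichment at the summit as a ratio and p- and q-values as −log10. The lists hold no read totals, and the depths that the study gives for its libraries were not used here.

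Peaks were assigned to RefSeq GRCm38.p6 genes by an overlap of at least 1 bp with the 2 kb on either side of a curated start, and the one with the highest fold was kept (Python 3.11.15, pandas 2.3.3, numpy 2.4.6, scipy 1.17.1, matplotlib 3.10.9). The assignment was tested on simulated data, where 400 of 400 genes were placed right. Ties took the smallest rank. Intervals of shares are Wilson and those of heights exact Poisson, and they cover counting error only. Intervals of median rank percents are binomial and reflect the spread over members. With 1 pooled list a group, no test between groups was made.

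Genes named were those without a promoter peak in at least 1 list, the 5 strongest and 5 weakest by mean rank percent, the 2 with the largest difference in rank percent in each direction of each comparison, the 3 widest in each list, paralogue pairs, the stalk proteins, Rpsa and Rps6. A gene that this rule names is not reported here. The members and lists were chosen with earlier results of these data known. Alternatives for the window, q threshold, ranking and numbers of peaks were tried.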

Additional observations from a re-analysis of the deposited data

How the results depend on the processing

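The count of members with a promoter peak stayed within 1.5 times the reported count under all 20 list-by-setting alternatives, and the median width kept within its spread under 8 of 8. When every list was limited to its 58592 strongest peaks, the median rank percent at E14.5 was 7.89 for epithelium and 6.88 for fibers, and 14 and 11 members had a better rank percent at P0.5 in epithelium and fibers (49.9 and 52.8% over all genes). When genes were ranked only among best promoter peaks, the medians were 33.3, 29.1, 57.5 and 42.9, and 14 and 9 members were better at P0.5. Body peaks beyond 500 bp of a start were found in 31, 33, 1 and 10 members (51.3, 56.1, 38.4 and 44.3% over all genes). The looser pyrimidine run was found in 35 promoters. The other 10 medians and 8 counts of rank percent stayed within those limits. The median standing and the counts by standing did so under all 24 alternatives each, which were chosen after seeing the data. No paired analysis was possible because each list pools the libraries of its group and its columns carry no replicate. For the same reason no replicate could be left out. The members' median height in P0.5 fibers was 19 steps, and the part of sequencing depth in it was not tested.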

Other observations

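Ribosomal protein genes have many processed pseudogenes, copies made from their mRNAs without the promoter. Of 318 annotated ribosomal protein pseudogenes, 1, 2, 0 and 3 were overlapped by a peak in the 4 lists, where 3.58, 4.46, 2.40 and 2.72% of 10193 other pseudogenes were. The other pseudogenes were longer, with a median of 934 bp against 531 bp, and the part of length in these shares was not tested. The 6 overlapped copies were each overlapped in 1 list and had rank percents between 34.7 and 61.2. Rps13-ps6 lies within Bfsp1, a gene of the lens beaded filament, and Rps12-ps9 within Chmp1a. The part of reads shared by near-identical copies in these counts was not tested.

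Median standings of members with and without each of 7 promoter features were set side by side. Members with the Sp1, Ets or E-box motif had the stronger median in all 4 lists, the few with the YY1 (9) or NRF1 (3) motif the weaker in all 4 (for YY1 in E14.5 epithelium by 32.7 against 31.5%), and the TATA box and the pyrimidine run gave mixed directions. The 35 members with Sp1 and the 23 without it (19 in P0.5 fibers) had 24.2 and 39.8%, 24.03 and 32.1%, 45.8 and 64.6%, and 36.2 and 63.3% in the order of the lists. The 6 members with the E-box and the 52 without it (48 in P0.5 fibers) had 19.3 and 32.7%, 20.2 and 29.1%, 39.4 and 60.05%, and 28.3 and 46.7%. For the pyrimidine run the values with and without it were 32.1 and 31.7, 25.5 and 29.1, 60.9 and 49.8, and 44.8 and 43.2%. These are descriptions without a test.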
